A study of Mus musculus with 8 samples.

Results

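The MHC class I and antigen processing genes were 10 genes taken by name, H2-K1, H2-D1, H2-T23, B2m, Tap1, Tap2, Tapbp, Nlrc5, Psmb8 and Psmb9, of 24062 genes in the count table. All 10 were present in the table, and 9 passed the filter on low counts. Psmb8 did not pass and was not tested. Most cells show fragments of their own proteins on MHC class I molecules. The proteasome cuts proteins into peptides, the TAP1/TAP2 transporter carries the peptides into the endoplasmic reticulum, tapasin holds empty class I molecules at the transporter, and the loaded complex of a heavy chain and beta-2 microglobulin travels to the cell surface, where T cells and natural killer cells read it. Interferon signalling and the transactivator NLRC5 raise transcription of many of these genes in most tissues, and embryonic stem cells are known for low surface levels of MHC class I molecules.

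The study measured RNA in mouse embryonic stem cells (mESCs) that lacked activity of H3K9 methyltransferases, enzymes that methylate a lysine in the tail of histone H3. All 4 conditions used the same line, #33-6, which carries a conditional Setdb1 allele, and each condition had 2 biological replicates. WT mESCs received no treatment, and UNC0642-treated mESCs (called inhibitor-treated here) received 2 μM UNC0642, an inhibitor of the catalytic activity of G9a and GLP, for 3 days. Setdb1 KO mESCs received 800 nM 4-OHT for 5 days, which deletes Setdb1, and UNC0642-treated Setdb1 KO mESCs (called double-treated here) were labelled with 2 days of 4-OHT followed by 3 days of UNC0642, whereas the methods give 5 days of 4-OHT. One line stands for each genotype, the WT cells received no 4-OHT, and the loss of Setdb1 and the exposure to 4-OHT cannot be told apart. In such bulk RNA, fewer cells that express a gene and less RNA per cell cannot be told apart either.

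Library totals ranged from 11702590 to 26807807 counts, so that 3 counts, taken as the detection floor, stood for 0.108 to 0.311 CPM (counts scaled for library size with TMM factors). Transposable elements took between 2.77% and 17.1% of the counts, with the highest share in replicate 1 of double-treated mESCs. The 8 mESC markers, Pou5f1 and Nanog among them, summed to between 2678 and 5426 CPM. The 9 immune cell markers summed to between 4.61 and 12.2 CPM, with up to 6.58 CPM of Cd3e, 4.93 CPM of Itgam and 2.96 CPM of Csf1r in a library, whereas Ptprc and Lyz2 did not exceed 3 counts. With replicate number as a block, Cd3e rose in double-treated mESCs (log2 fold change 2.03, edgeR adjusted p = 0.0939, and 0.0173 with the block) and H2-Ab1 fell. Fibroblast markers summed to at most 24.05 CPM and trophoblast markers to at most 69.2 CPM. Of the fibroblast markers, Lum (0 to 2.91 CPM) rose with the block in double-treated mESCs (log2 fold change 8.49, edgeR adjusted p = 0.0654, and 0.0198 with the block). Pdgfrb fell there (-2.69, edgeR adjusted p = 0.0560, and 0.0122 with the block). The block called 17.2% of all features in that comparison. Primitive endoderm markers summed to between 56.7 and 58.9 CPM in inhibitor-treated mESCs and to between 10.6 and 39.8 CPM elsewhere. The part of these cells in the results was not tested. Setdb1 was at 169 and 127 CPM in WT mESCs, 130 and 86.4 CPM in inhibitor-treated mESCs, 47.3 and 51.0 CPM in Setdb1 KO cells, and 61.1 and 34.1 CPM in double-treated mESCs. The row counts reads over the whole gene. Its log2 fold change over WT was -1.59 in Setdb1 KO cells (edgeR adjusted p = 0.181, and 0.0164 when replicate number was a block) and -1.64 in double-treated mESCs (0.0746, and 0.00593 with the block).

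No member passed an adjusted p of 0.05 in any of the comparisons with WT by edgeR, and H2-K1 in double-treated mESCs was the 1 member that passed with the block or with DESeq2. In inhibitor-treated mESCs, 0 of 9 members were called against 0% of the 16245 genes and transposable element subfamilies tested. None of the 9 had an unadjusted p under 0.05, against 3.35% of all features. With the block the member count was 0 against 0.166% of all features. In Setdb1 KO cells, 0 of 9 were called against 1.12% of all features, and 0 against 4.30% with the block. None had an unadjusted p under 0.05 there, against 8.70%. In double-treated mESCs, 0 of 9 were called against 4.11% of all features, and 1 of 9, H2-K1, against 17.2% with the block. Without the block, an unadjusted p under 0.05 was found for H2-K1 and Nlrc5, against 18.0% of all features. With the block, edgeR gave an unadjusted p under 0.05 for 5 members there, 1 in inhibitor-treated mESCs and 0 in Setdb1 KO cells. The share of all features at that blocked p was not computed. DESeq2 called H2-K1 both on all 8 libraries (9.34% of features called) and on the 4 libraries compared (8.22%). The median log2 fold change of the 9 members was -0.45, 0.53 and -0.34 in the 3 conditions, and that of all features was -0.02, -0.02 and -0.01.

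**Figure D1:**
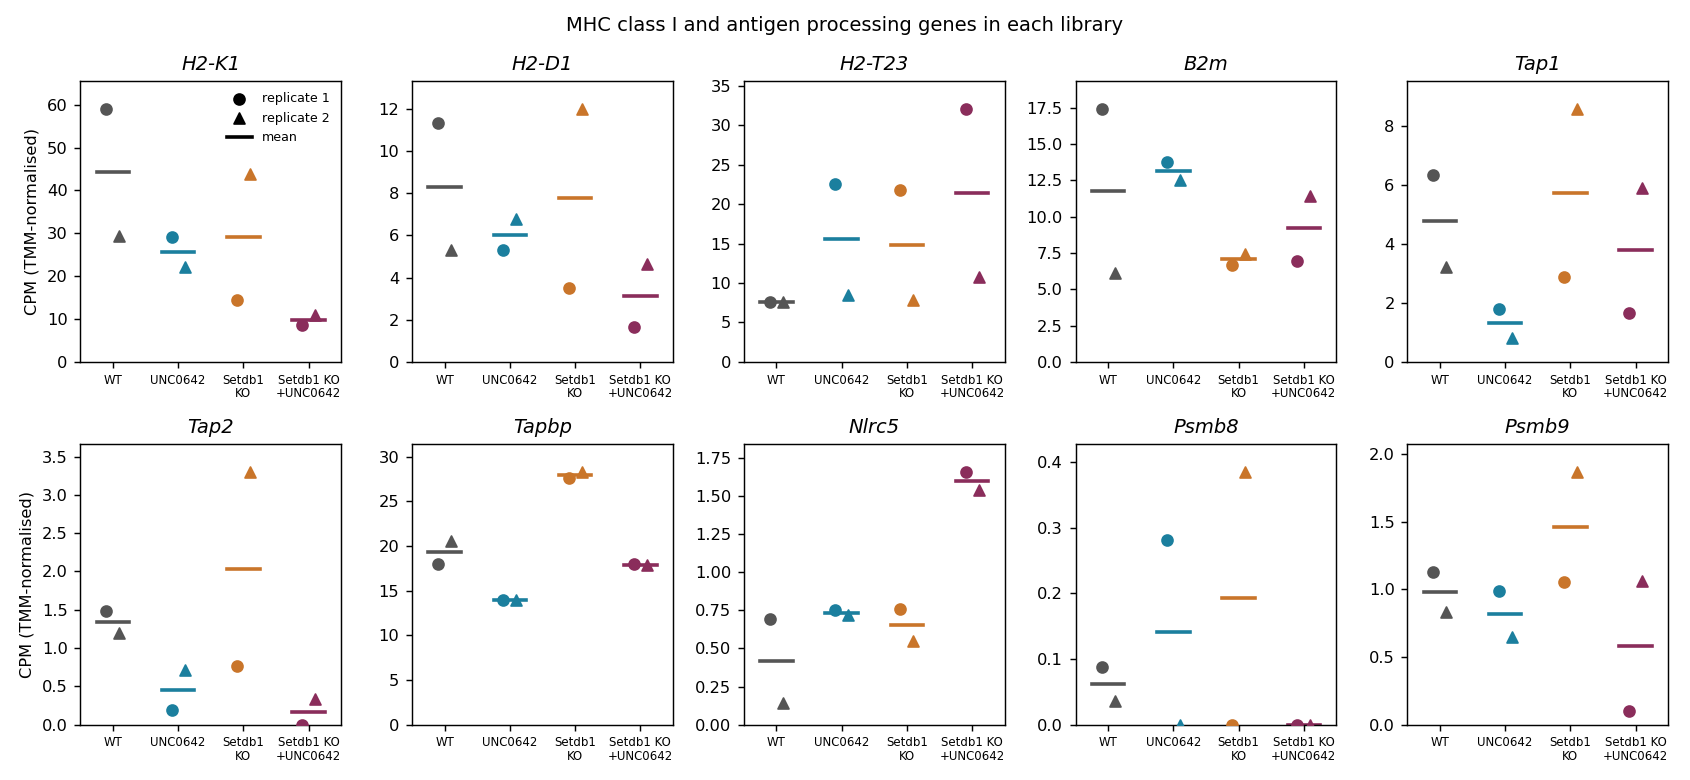
TMM-normalised CPM (linear axis from 0, scaled per gene) of the 10 members in each library, with circles for replicate 1, triangles for replicate 2 and a bar for the mean of a condition. Both libraries of double-treated mESCs had the lowest H2-K1 and the highest Nlrc5 of all 8, and Tapbp had the closest replicates.

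H2-K1 encodes a classical heavy chain, the polymorphic subunit that binds the peptide. Its level was 59.0 and 29.4 CPM in WT mESCs, 29.1 and 22.1 CPM in inhibitor-treated mESCs, 14.4 and 43.9 CPM in Setdb1 KO cells, and 8.72 and 10.99 CPM in double-treated mESCs. The double-treated libraries were the lowest of all 8 and overlapped no other condition, whereas the Setdb1 KO libraries lay on either side of both inhibitor-treated libraries. In double-treated mESCs the log2 fold change over WT was -2.16 (SE 0.61, 95% confidence interval -3.52 to -0.79), with an adjusted p of 0.0886 by edgeR. With the replicate block it was -2.18 (adjusted p = 0.0310), and DESeq2 gave an adjusted p of 0.00980 on 8 libraries and 0.00756 on 4. The blocked call rested on single libraries: the log2 fold change and adjusted p were -1.35 and 0.0980 without WT replicate 1, -2.03 and 0.143 without replicate 1 of the double-treated cells, and -2.30 and 0.172 without its replicate 2. The log2 fold change was -0.79 (SE 0.58) after UNC0642 and -0.60 (SE 0.58) after Setdb1 loss, both with an adjusted p of 1 by edgeR.

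H2-D1 encodes the other classical heavy chain measured here. It was at 11.3 and 5.30 CPM in WT mESCs, 5.31 and 6.76 CPM in inhibitor-treated mESCs, 3.51 and 11.997 CPM in Setdb1 KO cells, and 1.66 and 4.63 CPM in double-treated mESCs. The double-treated libraries lay below both WT libraries, and the other treated conditions overlapped WT. On the log2 scale the change over WT was -1.37 (SE 0.77, edgeR adjusted p = 0.402) in double-treated mESCs (from -2.30 without replicate 2 of the double-treated cells to -0.74 without WT replicate 1), -0.45 (SE 0.75) in inhibitor-treated mESCs and -0.10 (SE 0.75) in Setdb1 KO cells. Across the 8 libraries log2 CPM of H2-K1 and H2-D1 correlated at r = 0.89, a value over libraries that share their conditions and depth.

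H2-T23 encodes the nonclassical heavy chain Qa-1, a ligand of inhibitory receptors of natural killer cells. Its 2 WT libraries were nearly equal at 7.58 and 7.61 CPM. The treated conditions had 22.6 and 8.53 CPM (UNC0642), 21.8 and 7.87 CPM (Setdb1 KO), and 32.1 and 10.8 CPM (both). All 6 treated libraries lay above WT, and in every treated condition replicate 1 was the high library. The log2 fold change over WT was 1.03 (SE 0.73), 0.97 (SE 0.73) and 1.49 (SE 0.73) in that order, with edgeR adjusted p-values of 1, 0.931 and 0.332. With the block the log2 fold change in double-treated mESCs was 1.19 (SE 0.42, edgeR adjusted p = 0.0840). Within replicate 1 the log2 ratio of CPM to WT was 1.56, 1.51 and 2.07, and within replicate 2 it was 0.16, 0.05 and 0.50. H2-T23 was opposite to the classical heavy chains over the 8 libraries (r = -0.65 with H2-K1 and -0.82 with H2-D1).

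B2m encodes beta-2 microglobulin, the invariant light chain. It was at 17.4 and 6.10 CPM in WT mESCs, 13.8 and 12.5 CPM in inhibitor-treated mESCs, 6.69 and 7.43 CPM in Setdb1 KO cells, and 6.95 and 11.4 CPM in double-treated mESCs. The WT libraries spanned the values of all treated libraries. In the edgeR fit the log2 fold change was 0.17 (SE 0.58), -0.73 (SE 0.59) and -0.34 (SE 0.59) in the 3 treated conditions, with edgeR adjusted p-values of 1, 0.960 and 0.840.

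Class I genes are near-identical in parts, which bears on how counts were shared among them. In GENCODE M21 (GRCm38), H2-K1 (chr17:33996017-34000347, minus strand), H2-D1 (chr17:35262730-35267499, plus strand) and H2-T23 (chr17:36029773-36032855, minus strand) lie in the MHC of chromosome 17, and B2m (chr2:122147686-122153083, plus strand) lies outside it. Of all 50-base stretches of the transcript, 8.79% in H2-K1, 14.3% in H2-D1 and 29.8% in H2-T23 also occurred in a transcript of another gene. B2m had none. The counts of the heavy chains are uncertain to that extent, since reads that match several genes can be split or lost between them. The strain of the line, and so its class I alleles, is not given in the sources used here, and reads of alleles that differ from the reference genome can be lost, which touches the heavy chain levels and their comparison with other genes.

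Tap1 encodes a subunit of the peptide transporter. It was at 6.36 and 3.21 CPM in WT mESCs, 1.79 and 0.827 CPM in inhibitor-treated mESCs, 2.88 and 8.59 CPM in Setdb1 KO cells, and 1.66 and 5.92 CPM in double-treated mESCs. Only the inhibitor-treated libraries stood clear of WT, below both. The log2 fold change there was -1.87 (SE 0.85, 95% confidence interval -3.77 to 0.04), with an unadjusted p of 0.0543 and an adjusted p of 1 by edgeR. It was 0.27 (SE 0.81) in Setdb1 KO cells and -0.30 (SE 0.81) in double-treated mESCs.

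Tap2 encodes the partner of Tap1 in the transporter. It had 17 and 33 counts in WT mESCs (1.48 and 1.19 CPM), 4 and 20 counts in inhibitor-treated mESCs (0.188 and 0.719 CPM), 18 and 60 counts in Setdb1 KO cells (0.762 and 3.30 CPM), and 0 and 9 counts in double-treated mESCs (0 and 0.331 CPM). Both UNC0642 conditions lay below WT. The log2 fold change over WT was -2.67 (SE 1.20, edgeR unadjusted p = 0.0521, adjusted p = 0.283) in double-treated mESCs, a fitted value that depends on the prior count and was -2.28 with a prior count of 2. It was -1.52 (SE 1.10) in inhibitor-treated mESCs and 0.60 (SE 1.05) in Setdb1 KO cells.

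Tapbp encodes tapasin, which bridges empty class I molecules and the transporter. It was at 18.03 and 20.5 CPM in WT mESCs, 13.96 and 13.99 CPM in inhibitor-treated mESCs, 27.6 and 28.3 CPM in Setdb1 KO cells, and 17.96 and 17.83 CPM in double-treated mESCs. No pair of conditions overlapped, and the order of the levels was Setdb1 KO, WT, both treatments, UNC0642. WT and the double-treated cells, neighbours in that order, differed by a log2 fold change of -0.11 (SE 0.40), within its 95% confidence interval of -0.998 to 0.78. Relative to WT, the log2 fold change was -0.46 (SE 0.40) in inhibitor-treated mESCs and 0.53 (SE 0.40) in Setdb1 KO cells, with edgeR adjusted p-values of 1 and 0.926. Between these ends, Setdb1 KO over inhibitor-treated mESCs, it was 1.00 (SE 0.40, 95% confidence interval 0.10 to 1.89), with an unadjusted p of 0.0326 and an adjusted p of 0.662 by edgeR.

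Tap1 (chr17:34187553-34197225, plus strand) and Psmb9 (chr17:34181987-34187764, minus strand) share 212 exonic bases at their starts, 3.9% of the exonic length of Tap1 and 5.8% of that of Psmb9, and reads there cannot be told apart where the counting did not use strand. Psmb8 (chr17:34197721-34201454, plus strand) begins 496 bases beyond Tap1, and Tap2 (chr17:34203527-34216321, plus strand) follows it. Tapbp (chr17:33915899-33929292, plus strand) shares 149 exonic bases, 4.1% of its exonic length, with Zbtb22. Of the 50-base stretches of Tapbp 21.0% occurred in another gene, 19.0% in Gm19412, so its counts carry that uncertainty too. This share was 12.6% in Tap2 (9.9% in Gm15821), 12.5% in Psmb9, 6.47% in Tap1 and 5.83% in Psmb8, and Nlrc5 had none. Nlrc5 (chr8:94434356-94527272, plus strand) shares 78 exonic bases with 9330175E14Rik, which had at most 0.147 CPM.

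Psmb9 and Psmb8 encode catalytic subunits of the immunoproteasome, the form that replaces the constitutive subunits in immune cells and after interferon. Psmb9 was at 1.13 and 0.830 CPM in WT mESCs, 0.987 and 0.648 CPM in inhibitor-treated mESCs, 1.06 and 1.87 CPM in Setdb1 KO cells, and 0.104 and 1.07 CPM in double-treated mESCs. All treated conditions overlapped WT, and the lowest value was a single count. The log2 fold change was -0.25 (SE 0.92), 0.58 (SE 0.91) and -0.60 (SE 0.93) in the 3 treated conditions, with edgeR adjusted p-values of 1, 1 and 0.820. Psmb8 had a single count in each WT library, 6 and 0 counts in inhibitor-treated mESCs, 0 and 7 in Setdb1 KO cells, and 0 and 0 in double-treated mESCs. Only 2 libraries, of different conditions, exceeded the floor of 3 counts, and no fold change is given.

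Per length, the constitutive subunits far exceeded their immunoproteasome counterparts. In CPM per kb of exon, Psmb6 averaged 60.8 ± 28.4 (SD, n = 2) in WT mESCs and its counterpart Psmb9 0.268 ± 0.058 (SD, n = 2). Psmb7 averaged 58.8 ± 9.27 (SD, n = 2) and its counterpart Psmb10 3.22 ± 2.45 (SD, n = 2). Psmb5 averaged 125 ± 85.7 (SD, n = 2) and its counterpart Psmb8 0.018 ± 0.011 (SD, n = 2). The same order held in all 8 libraries for each of these pairs. On this scale the members of the peptide loading step in WT mESCs were at 15.04 ± 7.10 (H2-K1), 13.7 ± 9.31 (B2m), 5.31 ± 0.49 (Tapbp), 3.22 ± 1.65 (H2-D1), 2.63 ± 0.0093 (H2-T23), 0.874 ± 0.406 (Tap1) and 0.353 ± 0.054 (Tap2) (SD, n = 2 each). On this scale H2-K1 and B2m did not differ beyond their spread, nor did H2-D1 and H2-T23. The length was the union of all annotated exons, 2938 bases for H2-K1, 2579 for H2-D1, 2889 for H2-T23 and 860 for B2m. The longest coding transcripts have 1619, 2102, 1472 and 860 bases in that order, and the order of these genes depends on that choice.

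**Figure D2:**
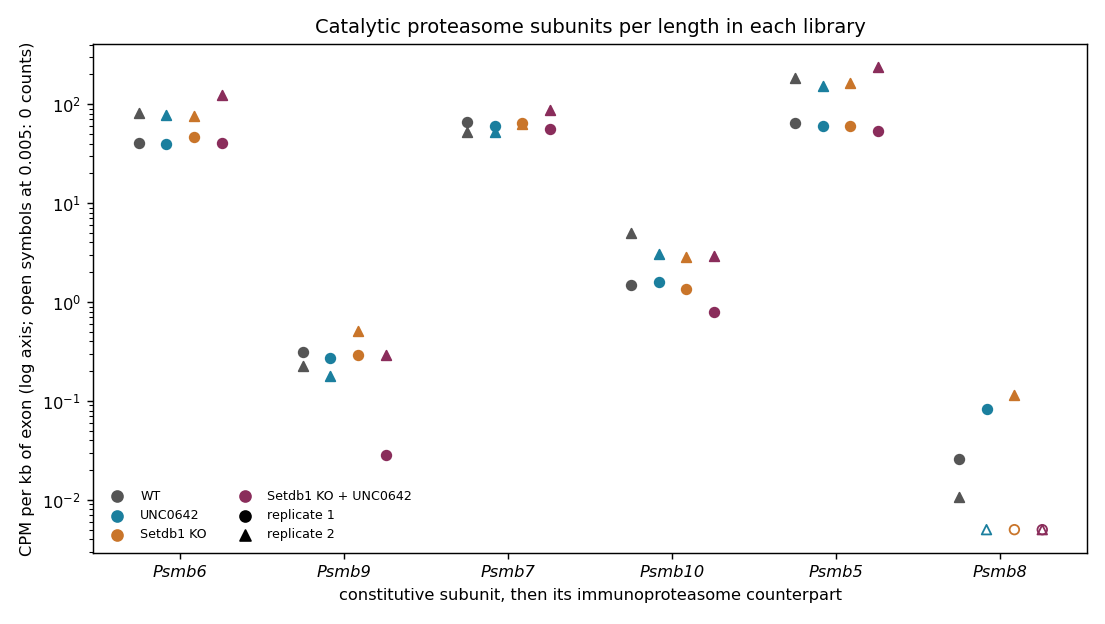
CPM per kb of exon (log axis) of the constitutive catalytic proteasome subunits, each followed by its immunoproteasome counterpart, in 8 libraries coloured by condition, with circles for replicate 1 and triangles for replicate 2. Psmb5, Psmb6 and Psmb7 lay above Psmb8, Psmb9 and Psmb10 in every library, and open symbols at the bottom mark libraries with 0 counts of Psmb8.

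Nlrc5 encodes the transactivator that binds with RFX factors at class I promoters. It had 8 and 4 counts in WT mESCs (0.697 and 0.144 CPM), 16 and 20 counts in inhibitor-treated mESCs (0.752 and 0.719 CPM), 18 and 10 counts in Setdb1 KO cells (0.762 and 0.550 CPM), and 16 and 42 counts in double-treated mESCs (1.66 and 1.54 CPM). The double-treated libraries were the highest of all 8, and Setdb1 KO overlapped WT. The log2 fold change over WT in double-treated mESCs was 2.03 (SE 0.88, 95% confidence interval 0.04 to 4.02), with an unadjusted p of 0.0462 and an adjusted p of 0.267 by edgeR, and 0.0764 with the block. It was 3.41 without WT replicate 1 and 1.21 without WT replicate 2. It was 0.92 (SE 0.88) in inhibitor-treated mESCs and 0.76 (SE 0.88) in Setdb1 KO cells. Thus Nlrc5 had its highest and H2-K1 its lowest level in the same libraries, with r = -0.61 between them over 8 libraries.

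**Figure D3:**
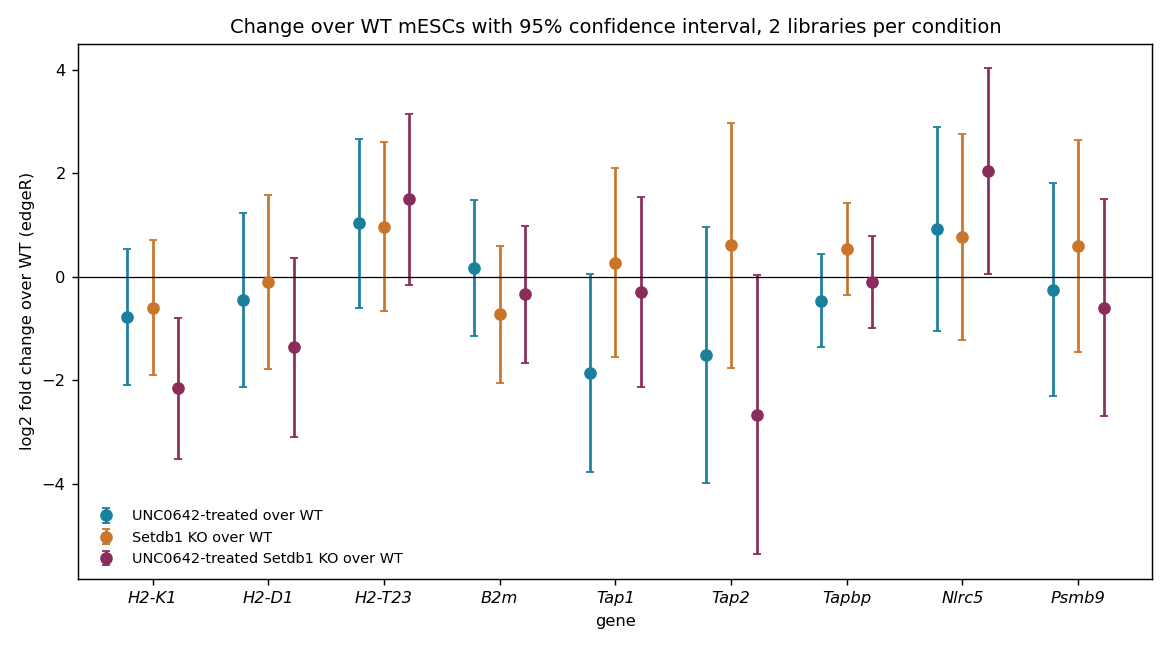
Log2 fold change over WT mESCs (y axis, edgeR) of the 9 tested members, with 95% confidence intervals as bars, in the 3 treated conditions. The intervals of H2-K1 (-3.52 to -0.79) and Nlrc5 (0.04 to 4.02) in double-treated mESCs were the 2 that did not include 0.

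Counted by library, 6 of 9 members did not overlap WT in inhibitor-treated mESCs (2 above, 4 below), 2 in Setdb1 KO cells (both above) and 6 in double-treated mESCs (2 above, 4 below). Of all features 24.5%, 30.6% and 43.3% did not overlap WT in these conditions. H2-K1, Tap2 and Tapbp lay below WT in both conditions with UNC0642. H2-T23 lay above WT in all 3 conditions.

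The direction of a member's change was also read within each replicate number. In Setdb1 KO cells, 6 of 9 members (H2-K1, H2-D1, B2m, Tap1, Tap2 and Psmb9) were below WT within replicate 1 and above it within replicate 2, whereas 43.9% of all features had opposite signs. The median log2 ratio of the 9 members was -0.88 within replicate 1 and 1.09 within replicate 2, and that of all features was 0.02 and 0.00024. In double-treated mESCs it was -1.88 and 0.33, with 3 of 9 members of opposite sign against 34.2% of all features. In inhibitor-treated mESCs it was -0.37 and -0.32, with 2 of 9 of opposite sign against 40.4%. The median gap between replicates of the members, on the log2 scale, was 1.46 in Setdb1 KO cells, 1.43 in double-treated mESCs, 0.96 in WT mESCs and 0.39 in inhibitor-treated mESCs. For all genes it was 0.66, 0.71, 0.67 and 0.65.

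**Figure D4:**
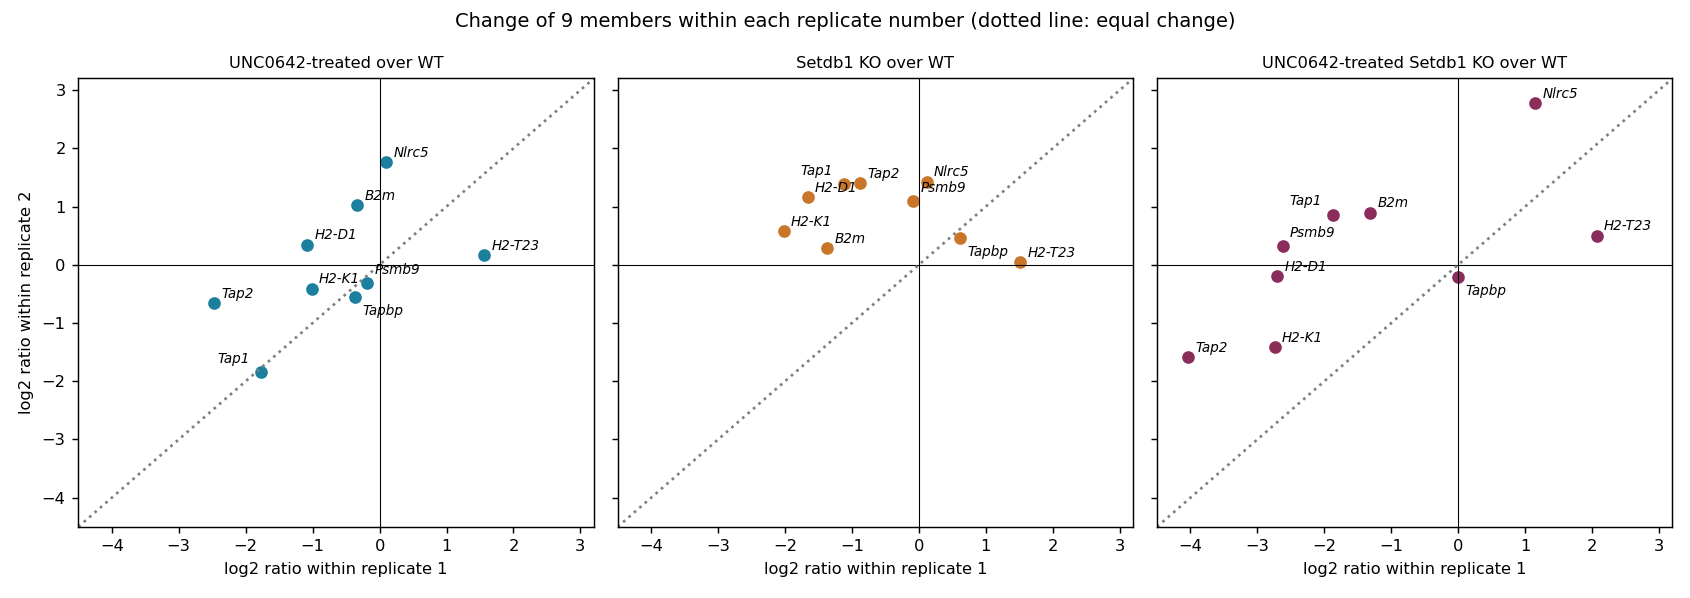
Log2 ratio of CPM to WT within replicate 1 (x axis) and within replicate 2 (y axis) for the 9 tested members, with 1 panel per treated condition and a dotted line where both are equal. In Setdb1 KO cells, 6 members lie left of 0 and above 0, and Tapbp lies near the dotted line in every panel.

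Between the treated conditions, 0 of 9 members were called by edgeR, and the comparisons share their libraries with those above. Double-treated over Setdb1 KO cells had 0% of all features called, and H2-K1 (log2 fold change -1.56, unadjusted p = 0.0272, adjusted p = 0.954 by edgeR) and Tap2 (-3.27, unadjusted p = 0.0230, adjusted p = 0.908 by edgeR) had an unadjusted p under 0.05, against 4.58% of all features. Double-treated over inhibitor-treated mESCs had 1.16% called, and H2-K1 (-1.37, unadjusted p = 0.0448, adjusted p = 0.525 by edgeR) was the 1 member with an unadjusted p under 0.05, against 9.07%. Setdb1 KO over inhibitor-treated mESCs had 0.542% called, and Tap1 (2.13, unadjusted p = 0.0328, adjusted p = 0.662 by edgeR) and Tapbp were the 2 members with an unadjusted p under 0.05, against 6.06%. The block called 0 members in these comparisons, against 0.129%, 4.65% and 2.63% of all features in that order, and DESeq2 on 8 libraries called 0 against 0.634%, 3.59% and 2.19%. For the interaction of both treatments, the difference between their joint change and the sum of the single ones, 0 of 9 members and 0% of features were called by edgeR with or without the block, DESeq2 called 0 members and 0.00616% of features, and no member had an unadjusted p under 0.05.

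Among the other class I genes, 25 of the 27 listed were in the table and 19 were tested. H2-Q4 was the 1 that rose by edgeR against WT, in double-treated mESCs, where 4.11% of all features were called. H2-Q4 (chr17:35379617-35385290, plus strand) is a nonclassical heavy chain gene of the Q region. It was at 19.8 and 15.3 CPM in WT mESCs, 20.9 and 17.2 CPM in inhibitor-treated mESCs, 91.0 and 62.5 CPM in Setdb1 KO cells, and 132 and 82.8 CPM in double-treated mESCs. Both conditions without Setdb1 lay above all others. On the log2 scale the change over WT was 2.61 (SE 0.44, edgeR adjusted p = 0.0128) in double-treated mESCs, 2.13 (SE 0.43, edgeR adjusted p = 0.0570, and 0.00190 in the blocked fit) in Setdb1 KO cells and 0.12 (SE 0.41, edgeR adjusted p = 1) in inhibitor-treated mESCs. The first of these adjusted p-values was 0.0954 without WT replicate 1, 0.130 without WT replicate 2 and 0.0599 without replicate 1 of the double-treated cells, and between 0.00045 and 0.0049 with the block on all libraries or without any one. Of its 50-base stretches 39.2% occurred in another gene, 16.1% in Gm11131. The median log2 fold change of the 19 genes was -1.29 in double-treated mESCs, against -0.01 for all features.

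H2-K1 and H2-Q4 differed in direction in double-treated mESCs, and their promoters are shown for that reason. The 200 bases before the RefSeq start (GRCm38.p6) are H2-K1, chr17:34000348-34000547 on the minus strand, and H2-Q4, chr17:35379417-35379616 on the plus strand, written 5′ to 3′. Capitals mark TTCACTTC, a match to GAANNGAA on the other strand (a core recognised by interferon regulatory factors), and TGACG, the core of a cyclic AMP response element.
H2-K1: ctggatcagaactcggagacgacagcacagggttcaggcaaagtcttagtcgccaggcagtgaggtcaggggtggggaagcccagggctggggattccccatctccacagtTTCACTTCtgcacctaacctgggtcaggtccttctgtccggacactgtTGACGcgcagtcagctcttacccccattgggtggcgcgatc
H2-Q4: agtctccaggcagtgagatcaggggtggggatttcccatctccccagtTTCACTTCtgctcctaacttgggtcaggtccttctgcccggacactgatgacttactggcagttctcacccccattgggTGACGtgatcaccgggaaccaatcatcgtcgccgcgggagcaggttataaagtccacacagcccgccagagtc
The best local alignment of the pair was 86.4% identical over 118 columns. Both strands of the window from 250 bases before to 50 after each start were searched for 8 of the 10 members and H2-Q4, and no window was given for Tap2 and Nlrc5. GAANNGAA, a string shorter than GAAANNGAA that was added after the windows were seen, occurred in H2-K1, H2-D1 and H2-Q4 and in 20.2% of 27025 promoters. TGACG occurred in H2-K1, H2-D1, B2m, Tap1, Psmb9 and H2-Q4 and in 21.0% of promoters. The TGACG marked in H2-K1 and the one marked in H2-Q4 lie at different places. Where H2-K1 has TGACG, after the letters ggacactgt, H2-Q4 reads tgact after ggacactga. The TGACG marked in H2-Q4 follows cattggg, where H2-K1 reads tggcg. GAAANNGAA, an interferon-stimulated response element core, occurred in H2-T23 and B2m and in 8.6% of promoters, and TTCNNNGAA, a gamma-activated site, in Psmb8 and in 8.5%. A match is a string of letters and was not tested as a site.

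Factors that trim peptides or assemble class I molecules numbered 10, all tested. Lnpep, an aminopeptidase that trims peptides in endosomes, rose with the block in both conditions without Setdb1. It was at 36.3 and 34.6 CPM in WT mESCs, 54.1 and 38.3 CPM in inhibitor-treated mESCs, 120 and 85.0 CPM in Setdb1 KO cells, and 149 and 81.7 CPM in double-treated mESCs. The change was 1.53 on the log2 scale (SE 0.44, edgeR adjusted p = 0.2003, and 0.0142 with the block) and then 1.70 (SE 0.44, edgeR adjusted p = 0.0668, and 0.00491 with the block) in the conditions without Setdb1. Ide, a protease that degrades insulin and other peptides, fell with the block in double-treated mESCs (log2 fold change -1.32, edgeR adjusted p = 0.254, and 0.00943 with the block). None of the other 11 proteasome subunits tested was called by edgeR or with the block in any comparison with WT. Psme4 and Psme3, activators of the proteasome and the most abundant of them, had log2 fold changes of -0.06 and -0.03 in double-treated mESCs (edgeR adjusted p = 0.981 and 0.989).

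Of 30 regulators and interferon receptors, 26 were tested. Stat2 was the 1 called by edgeR against WT, in double-treated mESCs, where 4.11% of all features were called. Stat2, a transcription factor of the type I interferon response, was at 69.3 and 47.3 CPM in WT mESCs, 30.0 and 35.4 CPM in inhibitor-treated mESCs, 25.9 and 38.8 CPM in Setdb1 KO cells, and 13.9 and 18.8 CPM in double-treated mESCs. All treated libraries lay below WT. It fell by 1.83 on the log2 scale in the double-treated cells (SE 0.43, edgeR adjusted p = 0.0499). That call did not hold without any 1 of the 8 libraries (adjusted p from 0.0602 to 0.234), and the blocked adjusted p was 0.00743. The blocked call did not hold without replicate 1 or without replicate 2 of the double-treated cells (adjusted p = 0.0557 and 0.0585). Of the regulators reported here, 4 fell with the block in double-treated mESCs, Stat2 among them, where 17.2% of all features were called. Irf2 (log2 fold change -3.24, edgeR adjusted p = 0.106, and 0.0489 with the block) and Rfx5, a subunit of the RFX complex of class I and class II promoters (-1.78, edgeR adjusted p = 0.130, and 0.0161 with the block), fell with the block. The other was Tyk2, a kinase of interferon receptors (-1.60, edgeR adjusted p = 0.299, and 0.00992 with the block), named after its value was seen. Irf2 was low, with 1 and 6 counts in double-treated mESCs, against 31 and 22 counts in WT.

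Class II genes, which present peptides to helper T cells, were 11 in the table and 7 were tested. H2-Ab1 fell with the block in double-treated mESCs, where it had 0 and 10 counts, against 20 and 89 counts in WT (edgeR adjusted p = 0.187, and 0.0235 with the block). Of 32 interferon-stimulated genes 19 were tested, and 0 were called by edgeR in the comparisons with WT. With the block 2 rose and 3 fell in double-treated mESCs, where 17.2% of all features were called, and 1 fell in Setdb1 KO cells, against 4.30%. Ddx58, the RNA sensor RIG-I, had a log2 fold change of 1.98 (edgeR adjusted p = 0.235, and 0.0470 with the block) and Xaf1 1.75 (0.139, and 0.0342 with the block). Dhx58, the related sensor LGP2, had -2.50 (edgeR adjusted p = 0.201, and 0.0335 with the block) and Oas3 -1.92 (0.158, and 0.0352 with the block). Dhx58 was low, with 2 and 12 counts in double-treated mESCs, against 18 and 65 counts in WT. Ifitm3, named after its values were seen, fell with the block in both conditions without Setdb1 (-1.29 in Setdb1 KO cells and -1.07 in the double-treated, with blocked adjusted p-values of 0.0266 and 0.0218 and edgeR values of 0.486 and 0.327). The median of the 19 was -0.16 in double-treated mESCs, against -0.01 for all features.

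The members did not share one pattern over the 8 libraries. Correlation with the mean standardised log2 CPM of the 9 members ran from 0.85 for Psmb9, 0.83 for H2-D1 and 0.77 for Tap1 down to -0.15 for Nlrc5 and -0.52 for H2-T23. The genes outside the set whose log2 CPM followed that mean most closely over the 8 libraries were Slc35g2 (r = 0.96), Ell3 (r = 0.96), Wdr93 (r = 0.95), Gm4371 (r = 0.95) and Slc9a7 (r = 0.95). Their mean levels were 0.346, 7.41, 1.14, 5.84 and 0.496 CPM in that order, where the detection floor was 0.108 to 0.311 CPM. These genes were picked from all tested genes for their r, and the libraries share conditions and depth.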

How the data were processed

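RNA-seq of poly(A) RNA covered 4 conditions with 2 libraries each, grouped by the sample labels. The authors trimmed reads with Trim Galore 0.3.7, mapped them to GRCm38 with TopHat and counted them with TEtranscripts. The deposited files hold raw counts for genes and transposable element subfamilies. Annotation version and strand setting are not given in the sources used here. TEtranscripts divides a read among the elements it matches, and its handling of reads shared by genes can shift class I genes.

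Low features were removed with filterByExpr (min.count 10, min.total.count 15). TMM factors were computed with edgeR 4.0.16 in R 4.3.3, and its quasi-likelihood test was fitted to all 8 libraries, with Benjamini-Hochberg adjustment within a comparison over all 16245 features and a prior count of 0.125. CPM was the count over the scaled library total, as edgeR computes it. Log2 CPM and its ratios within a replicate used a prior count of 2. DESeq2 1.42.0 was an alternative. Scripts were tested on simulated data. The members and the other gene lists were chosen with earlier results of these data known. All members were named, and of each other list at most 4 genes called with or without the block, by p, or the 2 most abundant where none was called. The values of 1 regulator and 1 immune cell marker are not reported here. The confidence intervals came from the quasi-likelihood fit, which takes in the spread between libraries as well as counting error.

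Replicate numbers came from the labels. The deviations of same-numbered libraries correlated across genes in all 6 pairs of conditions (r from 0.28 to 0.66, median 0.59). The numbers were therefore taken as pairing the samples, and the fit with the replicate block is given where it changed a call. Intervals, SE and edgeR p-values not marked with the block are of the fit without it. The block takes the replicate effect as equal in all conditions. For H2-K1 the log2 gap of replicate 1 over replicate 2 was 1.00 in WT, 0.39 in inhibitor-treated, -1.60 in Setdb1 KO and -0.33 in double-treated mESCs. The gap of H2-D1, B2m, Tap1, Tap2 and Psmb9 also changed sign between conditions, and that of Nlrc5 did not. That of H2-T23 went from -0.0071 in WT to 1.57 in double-treated mESCs, and that of Tapbp from -0.19 to 0.01. Blocked p-values of such members are limited by this. The labels do not say whether replicates were separate cultures beyond "biological", so p-values measure the spread between these libraries.

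Positions, exonic lengths and shared 50-base stretches came from GENCODE M21, and promoters from RefSeq (GRCm38.p6), where 8 of 10 members matched by symbol. Python 3.11.15 with pandas 2.3.3 and matplotlib 3.10.9 was used.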

Additional observations from a re-analysis of the deposited data

How the results depend on the processing

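With 2 libraries per condition, 1 library often set a member's sign, and 95% intervals of the members' changes over WT, 1.78 to 5.40 log2 units wide, limit what could be seen. The number of members called in UNC0642-treated Setdb1 KO over WT was 0 by edgeR and 1 (H2-K1) with the replicate block, with DESeq2 on 8 libraries and with DESeq2 on 4. It was 0 with RLE or total-count scaling, without a filter and with genes only. Leaving out 1 library from the fit with the replicate block, a combination chosen after seeing the data, gave 0 to 4: 4 without WT replicate 2 (H2-D1, H2-K1, H2-T23 and Tap2, with 14.3% of all features called), Nlrc5 in place of H2-K1 without WT replicate 1 (14.7%), and 0 without replicate 1 or 2 of UNC0642-treated Setdb1 KO mESCs (9.46% and 3.52%). The block changed no other call of a member. The cause was not tested.

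No sign of a member's change over WT turned under the 8 settings other than leaving out 1 library, of which DESeq2 on 4 libraries used only those compared. Total-count scaling moved the median of all features by -0.17 in UNC0642-treated Setdb1 KO over WT. Of the 27 changes, leaving out 1 library turned the sign of 11 and moved 12 more by over 1.5 times, with these ranges over the 8 omissions for those that turned. In UNC0642-treated mESCs H2-D1 ranged from -0.88 to 0.19 and B2m from -0.38 to 1.11. In Setdb1 KO mESCs H2-D1 ranged from -1.25 to 0.54, B2m from -1.31 to 0.21, Tap1 from -0.74 to 0.85, Tap2 from -0.82 to 1.31 and Nlrc5 from -0.087 to 2.15. In UNC0642-treated Setdb1 KO mESCs B2m ranged from -0.91 to 0.59, Tap1 from -1.50 to 0.31, Tapbp from -0.21 to 0.0033 and Psmb9 from -3.15 to 0.13.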

Other observations

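Genes next to a member on the chromosome, where they passed the filter, were set beside it in UNC0642-treated Setdb1 KO over WT. Next to H2-K1, the class I gene H2-K2 had a log2 fold change of -2.10 (edgeR adjusted p = 0.280) and Ring1, a Polycomb subunit, 0.37 (0.859). Next to H2-D1, Ddx39b had 0.56 (edgeR adjusted p = 0.662) and H2-Q1 -0.44 (0.847). Next to H2-T23, the class I gene H2-T22 had -2.58 (edgeR adjusted p = 0.149), and the overlapping A930015D03Rik, on the other strand with no shared exonic base, had 0.50 (0.836). H2-K1 and H2-K2 were thus both lower in the fitted values, and H2-T22 was lower where H2-T23 was higher, with none of these past the threshold. Patl2, whose annotated span overlaps B2m on the other strand without a shared exonic base, had 2.57 (edgeR adjusted p = 0.292). It was at 24.9 and 30.0 CPM in replicate 2 of both conditions with UNC0642 and at 1.44 to 9.08 CPM in the other 6 libraries. Daxx and Zbtb22 beside Tapbp had 0.09 and -0.25 (edgeR adjusted p = 0.947 and 0.898), and H2-DMb1 beside Psmb9 had -1.11 (0.447).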
